A study of Mus musculus with 60 samples.

Results

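The inguinal fat of Giprfl/fl mice was compared between the animals given mGIPR-Ab/P1 and the animals given vehicle. The 10 libraries, 5 for each treatment, were chosen by their titles and belong to a series of 60 libraries of liver and inguinal white adipose tissue. Inguinal fat is the subcutaneous depot of the groin, and the RNA was extracted from pulverized tissue, so each library mixes all of its cells. All animals were diet-induced obese (DIO) mice. The treated group carried floxed Gipr alleles and received mGIPR-Ab/P1, a peptide-antibody conjugate. Its control group carried the same alleles and received vehicle, and the labels name no Cre in either group. A further 5 libraries of the same table came from GiprSyn-/- mice given vehicle. The labels do not spell out the driver behind Syn, and promoters of the synapsin genes are commonly used to direct deletion to neurons. The series also holds the same treatment in 5 Glp1rfl/fl mice against 5 Glp1rfl/fl mice given vehicle, and those libraries share none with the libraries described here. Titles number the libraries of each group as biological replicates. The dose, the length of treatment, the age, the body weight and the food intake are not given in the labels.

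Gipr encodes the receptor of GIP, a gut hormone that is released after meals and acts on adipocytes and on the brain. In published work on conjugates of this class the antibody blocks this receptor and the peptide activates the GLP-1 receptor. White adipocytes make fatty acids and sterols from acetyl-CoA in the cytosol and store fatty acids as triglyceride, and the enzymes of both routes are targets of the SREBP transcription factors, which bind sterol regulatory elements together with neighbouring factors such as NF-Y. The subcutaneous depot also holds vessels, nerves, mast cells, macrophages and, in the groin, a lymph node.

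Values were deposited as FPKM, fragments per kilobase of transcript, scaled to the size of the library, and are compared here as log2(FPKM + 1). Of 54343 symbols, 13604 had at least 1 FPKM in at least 5 of the 15 libraries of the table and were tested with limma, and a gene was called at an adjusted p under 0.05. The estimated depth was 29.9 to 56.7 M fragments with the conjugate and 30.6 to 39.3 M with vehicle. Mitochondrial transcripts took up 8.37, 6.80, 9.43, 8.44 and 6.395% of summed FPKM in the conjugate libraries, against 10.1, 11.03, 9.99, 10.4 and 10.8% in the vehicle libraries, with no overlap (exact permutation p = 0.00794, two-sided, the smallest that 5 against 5 libraries allow). The score of 12 B cell genes, a mean of log2(FPKM + 1), was 5.60, 2.51, 3.67, 1.58 and 3.34 with the conjugate, against 0.868, 4.17, 1.58, 0.892 and 1.23 with vehicle, and the summed FPKM of the 12 genes ran from 29.5 to 762 with the conjugate and from 11.7 to 254 with vehicle. The skeletal muscle score ran from 2.05 to 6.28 with the conjugate and from 2.18 to 5.41 with vehicle. Both scores varied between libraries within each group, and their part in the results was not tested beyond the fits with a score as a term that are given below. Adipocyte markers were abundant in all libraries: Adipoq, the gene of adiponectin, had 1405, 1746, 1979, 2038 and 1903 FPKM with the conjugate, against 1995, 1543, 1964, 1626 and 1867 FPKM with vehicle. In bulk tissue, fewer cells of a type and less RNA per cell cannot be told apart.

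**Figure D1:**
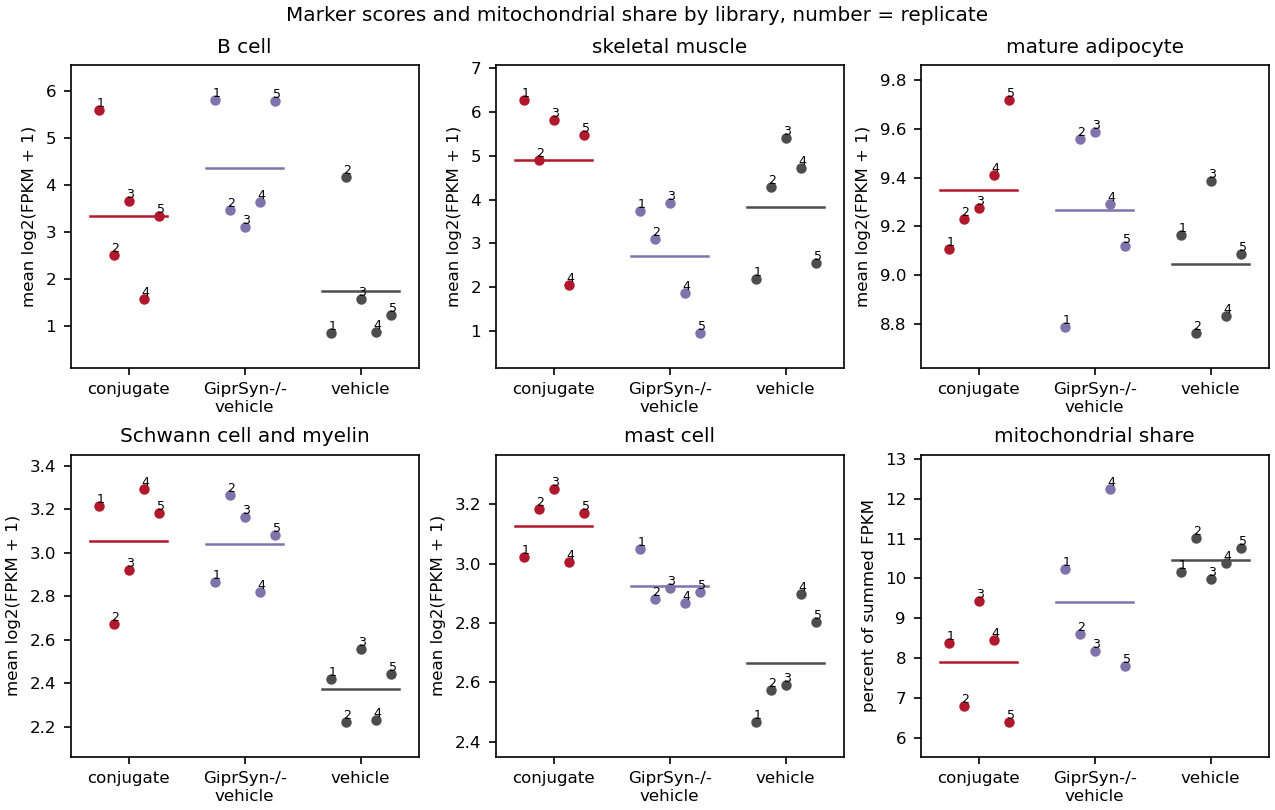
Marker scores (mean log2(FPKM + 1) over a list) and the mitochondrial share of summed FPKM (percent) for each library of conjugate-treated Giprfl/fl, vehicle-treated GiprSyn-/- and vehicle-treated Giprfl/fl inguinal fat, with lines at group means and replicate numbers beside the points. The B cell score of conjugate libraries runs from 1.58 to 5.60 and overlaps that of vehicle libraries, while the Schwann cell and mast cell scores of the 2 treatments do not overlap.

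The receptor itself was measured at a low level. Gipr had 3.57, 4.01, 6.57, 5.60 and 5.91 FPKM in the conjugate libraries, against 7.13, 5.02, 6.03, 7.46 and 5.12 FPKM in the vehicle libraries (log2 fold change -0.23 ± 0.18, adjusted p = 0.433). The groups overlapped and the gene was not called. In GiprSyn-/- fat given vehicle, Gipr had 3.20, 4.44, 5.37, 4.43 and 2.57 FPKM, so the transcript was still present in this tissue. Only the value of 5.37 FPKM lay above the lowest value of the Giprfl/fl vehicle libraries, 5.02 FPKM. Glp1r was at most 0.0352 FPKM in the conjugate libraries and at most 0.0119 FPKM in the vehicle libraries, below the filter, and was not tested. Dpp4, the peptidase that inactivates GIP and GLP-1 and also a marker of adipocyte progenitors, had 18.5, 11.8, 10.1, 18.1 and 10.04 FPKM in the conjugate libraries, against 5.83, 9.75, 8.87, 8.83 and 8.67 FPKM in the vehicle libraries. Its groups did not overlap, but it was not called (log2 fold change 0.62 ± 0.19, adjusted p = 0.0579). None of the 9 measured members of a list of incretin and growth factor receptors was called, and the smallest adjusted p among them was that of Dpp4.

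With the conjugate, 955 of the 13604 genes were called (7.02%), 579 higher (4.26%) and 376 lower (2.76%). Of these, 521 changed by at least 1.5-fold (3.83%), 265 upward and 256 downward, and at 2-fold or more there were 44 rises and 104 falls. The 5 conjugate values lay entirely beyond the 5 vehicle values for 1574 of all genes tested (11.6%). The median log2 fold change of all genes tested was 0.11. Quantile normalization moved it to 0.00 and turned the split to 186 higher and 448 lower, and scaling by the median of ratios gave 293 higher and 502 lower, so the surplus of rises depends on the scaling. List medians below are therefore given beside the overall median, and list counts beside the shares of 4.26% higher and 2.76% lower. The list members were chosen with earlier results of these data known. A count above these shares can therefore follow in part from the choice of members, and no list was tested as a set. The count also depended on single libraries, since it was 528, 530 and 420 without conjugate replicates 1, 4 and 5, and 447, 532, 501 and 476 without vehicle replicates 1, 2, 4 and 5. The rises alone were 374 without conjugate replicate 3 and 362 without vehicle replicate 3, and the changes of at least 1.5-fold were 287 without conjugate replicate 5 and 334 and 341 without vehicle replicates 1 and 4. With regard to lymph node and muscle content, the count was 927 (557 higher, 370 lower) when the libraries of a B cell score over 5 were left out, conjugate replicate 1 among them, it was 896 (611 higher, 285 lower) with the B cell score as a term, and it was 564 (338 higher, 226 lower) with the skeletal muscle score as a term, an alternative added after the scores were seen. These counts are not all the same genes. Of the 955 calls, 747 were kept without those libraries, 600 with the B cell score as a term and 556 with the muscle score. Members of gene lists are named below by rank within the list, and genes described as not called, with Me1, Elovl6, Acly, Thrsp, Fads1, Dcn, Thbs2, Sox10 and Cdh19 and the unlisted sterol genes, were picked after their values were seen.

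Rises and falls by size are given first. The 15 largest of each were picked among 551 called genes with non-overlapping groups and a mean of at least 5 FPKM in a group, so the separation of the groups is a condition of the choice. Cfd, which encodes adipsin, the complement protease that adipocytes secrete, had 3721, 1029, 1178, 2447 and 5602 FPKM in the conjugate libraries, against 441, 183, 813, 209 and 428 FPKM in the vehicle libraries. Conjugate replicate 5 was highest and conjugate replicate 2 lowest, and the log2 fold change was 2.67 ± 0.59 (SE; adjusted p = 0.0176), and the call was lost without conjugate replicate 5 (adjusted p = 0.0504). Gpx3, the secreted selenoprotein glutathione peroxidase of plasma, had 397, 248, 351, 511 and 434 FPKM in the conjugate libraries, against 96.1, 79.6, 66.4, 86.0 and 79.0 FPKM in the vehicle libraries. The lowest conjugate library was still above every vehicle library by more than the spread of the vehicle group, with a log2 fold change of 2.21 ± 0.22 and an adjusted p of 0.000119.

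Nnat, an imprinted gene that encodes the endoplasmic reticulum proteolipid neuronatin, had 1345, 1087, 1489, 1746 and 2084 FPKM in the conjugate libraries, against 605, 366, 733, 447 and 553 FPKM in the vehicle libraries (log2 fold change 1.52 ± 0.22, adjusted p = 0.00172). Further rises were Inmt, an indolethylamine methyltransferase (1.96 ± 0.25), Sult1e1, the estrogen sulfotransferase (1.67 ± 0.23), Slc1a3, a glutamate transporter (1.66 ± 0.24), and Net1, an exchange factor for the small GTPase RhoA (1.54 ± 0.20). Complement C7, a component of the membrane attack complex, rose by 1.52 ± 0.18 and Chrdl1, a secreted antagonist of bone morphogenetic proteins, by 1.48 ± 0.15. Timp4, an inhibitor of matrix metalloproteinases, rose by 1.499 ± 0.26, with conjugate replicate 5 at 119 FPKM and the other 4 between 39.4 and 58.7 FPKM. Cyp2f2, a cytochrome P450, St6galnac5, a sialyltransferase, and Plppr3, a phospholipid phosphatase-related protein, had log2 fold changes of 1.85, 1.55 and 1.42, and Plppr3 lost its call without conjugate replicate 1 or 5 or vehicle replicate 2 or 4 and with the B cell and muscle scores as terms (adjusted p up to 0.0644). Across the 15 rises, conjugate replicate 5 was the highest of the 5 libraries for 8 genes and replicate 2 the lowest for 7.

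The largest fall was that of Tph2. This gene encodes the tryptophan hydroxylase of serotonin-producing neurons and had 0.345, 8.66, 6.59, 1.33 and 1.40 FPKM in the conjugate libraries, against 30.8, 40.5, 19.05, 47.7 and 40.5 FPKM in the vehicle libraries (log2 fold change -3.31 ± 0.60, adjusted p = 0.00648). Every conjugate library was below every vehicle library, with the conjugate group ranging widely. Of the other serotonin genes, Tph1, Ddc and the receptors Htr2a, Htr2b and Htr1d did not pass the filter, Maoa, which degrades serotonin, averaged 10.7 ± 2.57 FPKM with the conjugate and 16.2 ± 1.6003 FPKM with vehicle (adjusted p = 0.0915), and Slc6a4, the serotonin transporter, was called higher at a low level (1.196 ± 0.105 FPKM with the conjugate and 0.659 ± 0.128 FPKM with vehicle, adjusted p = 0.0162), a call that was lost under quantile normalization (adjusted p = 0.131). Saa3, an acute phase serum amyloid A made in fat and by macrophages, had 0.158, 6.25, 3.64, 1.53 and 1.95 FPKM in the conjugate libraries, against 18.8, 21.002, 45.99, 39.4 and 21.1 FPKM in the vehicle libraries (log2 fold change -3.19 ± 0.61, adjusted p = 0.00847). Lipf, the acid lipase known from the stomach, had 0.290, 7.01, 7.38, 2.11 and 1.56 FPKM in the conjugate libraries, against 27.9, 23.98, 23.2, 38.6 and 31.1 FPKM in the vehicle libraries (log2 fold change -2.995 ± 0.57, adjusted p = 0.00844). For all 3 genes conjugate replicate 1 was the lowest of its group and replicates 2 and 3 were the highest.

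Oxtr, the oxytocin receptor, had 3.95, 33.9, 26.6, 13.9 and 13.4 FPKM in the conjugate libraries, against 80.2, 71.7, 72.7, 108 and 84.1 FPKM in the vehicle libraries (log2 fold change -2.39 ± 0.58, adjusted p = 0.0254), and its call was lost in 9 of 26 alternatives. S100a8, a calcium-binding alarmin of neutrophils, had 4.20, 6.39, 7.38, 3.70 and 5.81 FPKM in the conjugate libraries, against 16.3, 26.9, 21.4, 29.7 and 20.1 FPKM in the vehicle libraries (log2 fold change -1.88 ± 0.27, adjusted p = 0.00172). Both groups were narrow for S100a8, and its call was kept in all alternatives. The integrin Itgad fell by 2.37 on the log2 scale, the choline transporter Slc5a7 by 2.06, the proteoglycan Ncan by 2.01 and the keratin Krt79 by 1.91. Itgad lost its call without conjugate replicate 1 or 4 or vehicle replicate 4 or 5 and with the B cell score as a term (adjusted p up to 0.0625). Angptl8, a feeding-induced inhibitor of lipoprotein lipase, fell by 1.87 but lost its call in 10 alternatives, among them the fits without conjugate replicate 1, 4 or 5 and without vehicle replicate 1 or 5. The remaining falls were Ubd, a ubiquitin-like protein induced by cytokines (-1.86), Tfr2, a transferrin receptor (-1.86), Pla2g2e, a secreted phospholipase (-1.799), Gys2, a glycogen synthase (-1.77), and Paqr9, a membrane protein of the adiponectin receptor family (-1.74). Ubd lost its call without conjugate replicate 4 or vehicle replicate 4 or 5 and in both fits with the B cell score as a term (adjusted p up to 0.0776). Across the 15 falls, conjugate replicate 1 was the lowest of the 5 libraries for 11 genes and replicate 2 the highest for 11.

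Genes of cholesterol synthesis were lower with the conjugate. Of 23 measured genes in the list of cholesterol synthesis and uptake, 0 were called higher and 11 lower, with a median log2 fold change of -0.59. Nsdhl, a sterol dehydrogenase that acts after lanosterol, had 10.3, 22.2, 19.5, 14.1 and 8.26 FPKM in the conjugate libraries, against 37.3, 48.999, 32.9, 47.8 and 38.4 FPKM in the vehicle libraries (log2 fold change -1.47 ± 0.28, adjusted p = 0.00734). Insig1, the endoplasmic reticulum protein that retains SREBP precursors, had 44.03, 80.4, 68.0, 55.9 and 52.4 FPKM in the conjugate libraries, against 140.4, 165, 133, 155 and 135 FPKM in the vehicle libraries (log2 fold change -1.29 ± 0.21, adjusted p = 0.0039). Lss, which cyclises squalene epoxide to lanosterol, had 4.65, 9.36, 5.82, 4.88 and 3.67 FPKM in the conjugate libraries, against 15.3, 16.03, 12.6, 12.9 and 13.3 FPKM in the vehicle libraries (log2 fold change -1.22 ± 0.18, adjusted p = 0.00172). In all 3 genes the highest conjugate value came from replicate 2 and remained below the lowest vehicle value.

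Hmgcs1, the cytosolic synthase that opens the pathway, had 49.5, 91.6, 94.9, 68.4 and 68.8 FPKM in the conjugate libraries, against 162, 202, 138, 143 and 138 FPKM in the vehicle libraries (log2 fold change -1.08 ± 0.25, adjusted p = 0.0207), and it lost its call without conjugate replicate 1 or 5 or vehicle replicate 1 or 2 and in 2 fits with the B cell score as a term (adjusted p up to 0.057). Further called members were Pmvk, Fdps, Cyp51, Tm7sf2, Hsd17b7 and Dhcr7, with log2 fold changes between -0.47 and -0.94. Srebf2, the gene of the sterol-sensing transcription factor (0.54), and Fdft1, squalene synthase (0.40), were not called. The count of 11 became 7 without conjugate replicate 1 or 5, 5 without vehicle replicate 1, 7 without vehicle replicate 2, 7 with the B cell score as a term and 5 with the B cell and muscle scores, whereas the median stayed between -0.72 and -0.44 in all alternatives.

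The promoters of Nsdhl and Hmgcs1 among the sterol genes and of Fasn among the fatty acid genes are shown. Whether a shared control had a part in the falls was not tested. The sequences run from 250 bases before to 50 bases after a transcript start in RefSeq on GRCm38.p6, with capitals for CCAAT, the letters of the NF-Y box, on either strand (read as ATTGG on the other strand) and for TCACNCCAC, a sterol regulatory element. The windows are chrX:72918271-72918570 on the plus strand for Nsdhl, chr13:119690101-119690400 on the plus strand for Hmgcs1 and chr11:120824498-120824797 on the minus strand for Fasn, each written in the direction of its gene.
Nsdhl: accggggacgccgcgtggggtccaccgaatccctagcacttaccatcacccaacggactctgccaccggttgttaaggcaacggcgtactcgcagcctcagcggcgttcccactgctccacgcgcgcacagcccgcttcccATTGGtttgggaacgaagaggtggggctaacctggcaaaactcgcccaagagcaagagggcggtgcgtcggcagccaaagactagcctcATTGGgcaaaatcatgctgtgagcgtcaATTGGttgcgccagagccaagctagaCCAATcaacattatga
Hmgcs1: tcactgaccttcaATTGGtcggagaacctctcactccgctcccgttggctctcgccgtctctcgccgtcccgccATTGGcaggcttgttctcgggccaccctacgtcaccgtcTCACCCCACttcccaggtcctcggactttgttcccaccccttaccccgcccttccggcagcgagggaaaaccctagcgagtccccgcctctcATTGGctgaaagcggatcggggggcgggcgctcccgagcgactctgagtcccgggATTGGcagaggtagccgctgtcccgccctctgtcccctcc
Fasn: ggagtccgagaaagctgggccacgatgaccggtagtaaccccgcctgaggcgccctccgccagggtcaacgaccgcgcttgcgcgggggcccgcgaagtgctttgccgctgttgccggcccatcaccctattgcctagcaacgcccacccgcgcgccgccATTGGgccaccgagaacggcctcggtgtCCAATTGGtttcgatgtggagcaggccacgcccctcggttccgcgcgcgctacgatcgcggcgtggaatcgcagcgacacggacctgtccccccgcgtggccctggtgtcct
Nsdhl held 4 CCAAT matches, Hmgcs1 held 4 and a single sterol regulatory element, and Fasn held 3 CCAAT matches, of which the last 2 overlap on opposite strands, with no match to TCACNCCAC. The promoters shown are those with the most CCAAT matches among the genes called lower in each list. Those of Lss, Insig1, Cyp51, Tm7sf2, Acss2 and Acly held 1 each, and that of Elovl6 held 0. Of the 11 sterol genes called lower, 9 had promoters in the table, 12 in all, and 9 of the 12 (75%) held CCAAT, against 37.3% of the 13076 promoters of tested genes. TCACNCCAC was found in 1 of the 12, against 1.09% of promoters of tested genes. Of the 8 fatty acid synthesis genes called lower, 7 had 8 promoters, of which 6 held CCAAT and 0 held TCACNCCAC. The letters CACGTG, an E-box, were found in 3 of the 12 and 1 of the 8 promoters, against 9.74% of the promoters of tested genes. A match is a description of these letters and not a shown binding site.

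**Figure D2:**
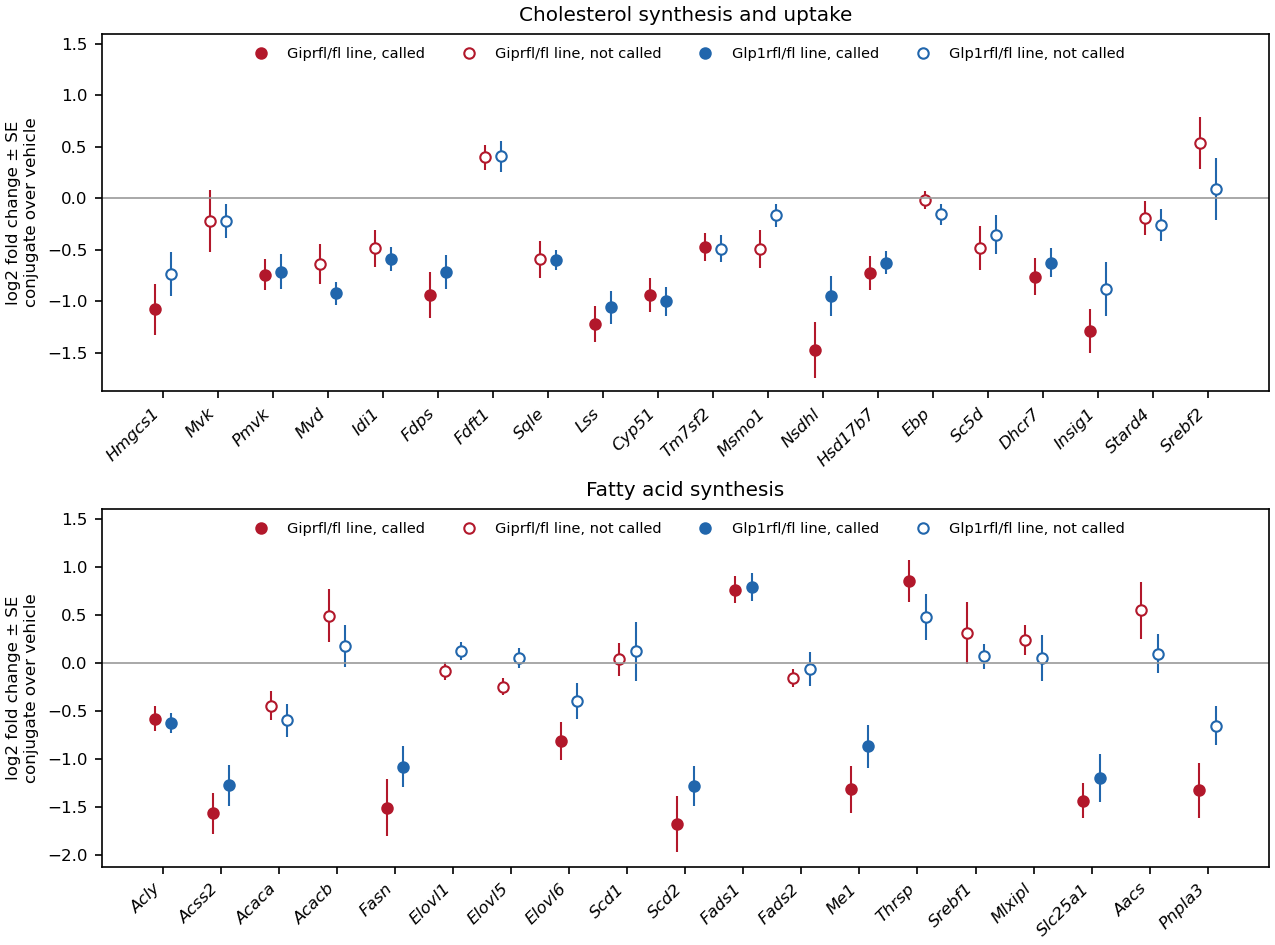
Log2 fold change of FPKM + 1 (conjugate over vehicle, with SE) of genes of cholesterol synthesis and uptake (top) and fatty acid synthesis (bottom) in the Giprfl/fl and Glp1rfl/fl lines, filled where called. In the Giprfl/fl line 11 of 23 measured sterol genes, not all of them drawn, and 8 of 19 fatty acid genes are called lower, and Scd1 is called in neither line.

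Falls in fatty acid synthesis took in genes that supply acetyl-CoA, the synthase, a desaturase and an elongase. Of 19 measured genes, 8 were called lower and 2 higher, the list median was -0.25 on the log2 scale, and the 8 falls stayed between 7 and 9 in all alternatives, whereas the 2 rises became 1 in 12 of 26. Fasn, fatty acid synthase, had 72.8, 111, 80.5, 46.2 and 34.7 FPKM in the conjugate libraries, against 248, 169.5, 245, 119 and 167 FPKM in the vehicle libraries (log2 fold change -1.51 ± 0.30, adjusted p = 0.0102). Slc25a1, which exports citrate from mitochondria, had 71.1, 109, 114, 81.0 and 87.7 FPKM in the conjugate libraries, against 265, 201, 258, 228 and 295 FPKM in the vehicle libraries (log2 fold change -1.43 ± 0.18, adjusted p = 0.000761). Acss2, which makes acetyl-CoA from acetate, had 16.6, 27.2, 22.5, 16.98 and 13.2 FPKM in the conjugate libraries, against 56.5, 76.0, 44.2, 58.8 and 55.0 FPKM in the vehicle libraries (log2 fold change -1.56 ± 0.22, adjusted p = 0.00123). For all 3 genes the groups were separate.

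Scd2, a stearoyl-CoA desaturase, had 38.2, 81.6, 58.3, 34.5 and 21.3 FPKM in the conjugate libraries, against 136, 153, 111, 148 and 140.3 FPKM in the vehicle libraries (log2 fold change -1.67 ± 0.29, adjusted p = 0.00532). Its relative Scd1, the main desaturase of fat, had more FPKM and was not called (4681 ± 352 FPKM with the conjugate and 4593 ± 653 FPKM with vehicle, log2 fold change 0.04 ± 0.17, adjusted p = 0.907). Pnpla3, a lipid droplet protein induced by feeding, fell by 1.32 on the log2 scale (52.7 ± 21.8 FPKM with the conjugate and 125 ± 28.1 FPKM with vehicle, adjusted p = 0.0167). Me1, malic enzyme, Elovl6, the elongase of palmitate, and Acly, ATP citrate lyase, fell as well and had log2 fold changes of -1.31, -0.81 and -0.58. The rises were Thrsp, a lipogenic nuclear protein (165 ± 27.4 FPKM with the conjugate and 92.4 ± 25.4 FPKM with vehicle, log2 fold change 0.85 ± 0.22, adjusted p = 0.0332), and Fads1, the delta-5 desaturase (23.4 ± 5.16 FPKM with the conjugate and 13.3 ± 2.24 FPKM with vehicle, log2 fold change 0.76 ± 0.14, adjusted p = 0.00723). Fads1 kept its call in all 26 alternatives and Thrsp in 14 of 26, with losses without conjugate replicate 1 or 5 or vehicle replicate 1, 2, 4 or 5, under median-of-ratios scaling and with the B cell or muscle score as a term (adjusted p up to 0.0861). Neither Srebf1, which encodes the SREBP of lipogenesis (0.31 ± 0.32, adjusted p = 0.559), nor Mlxipl, the carbohydrate-responsive factor ChREBP (0.24 ± 0.16, adjusted p = 0.361), was called.

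**Figure D3:**
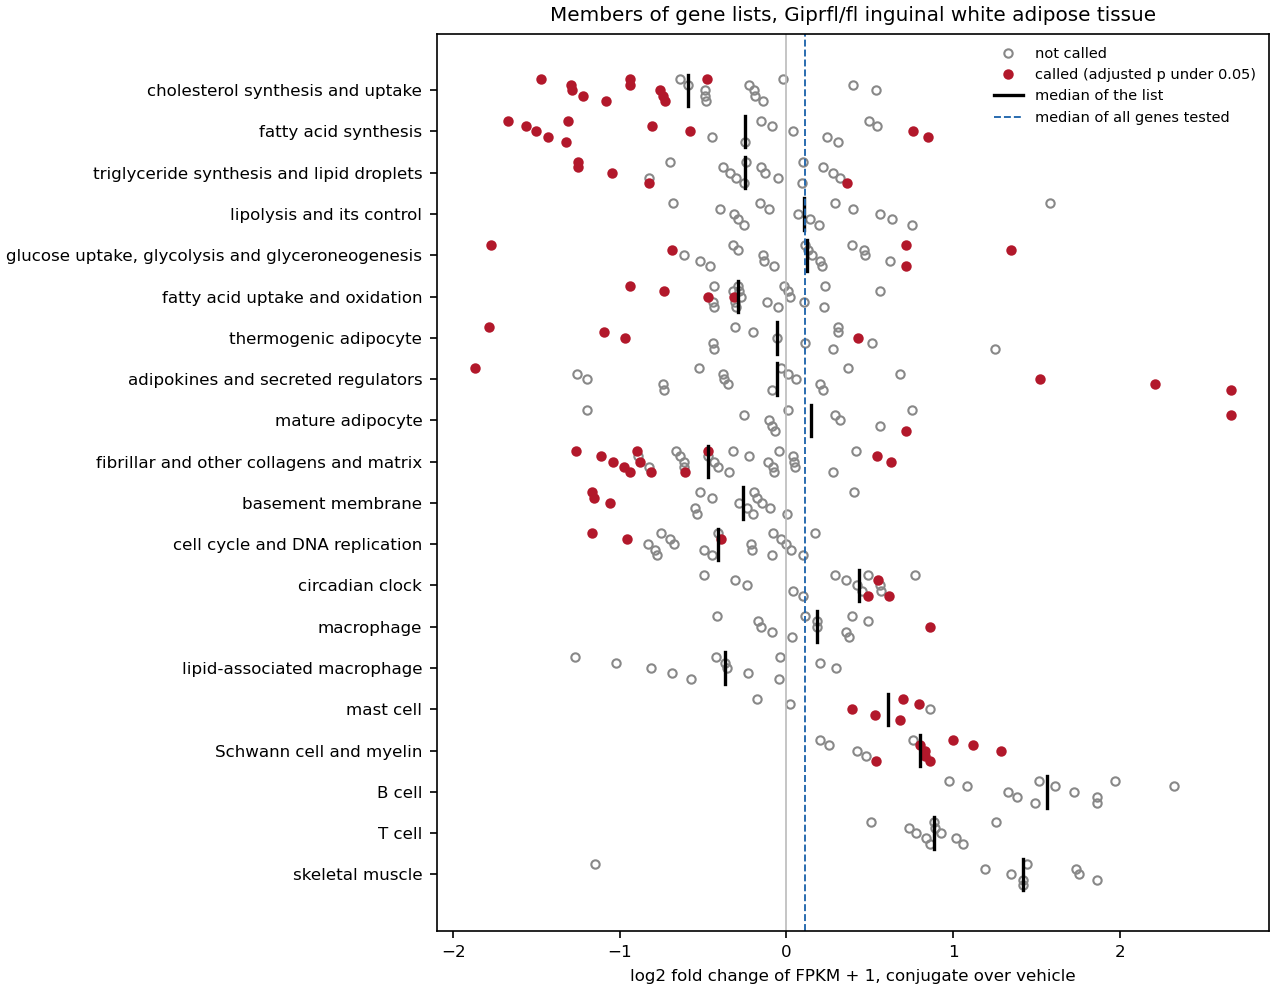
Log2 fold change of FPKM + 1 (conjugate over vehicle) of each measured member of 20 gene lists in Giprfl/fl fat, filled where called, with the median of each list and, dashed, the median of 0.11 of all genes tested. The medians run from -0.59 for cholesterol synthesis to 1.57 for B cell genes, of which 0 were called.

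Storage and uptake of fat showed fewer calls. Of 20 genes of triglyceride synthesis and lipid droplets, 4 were called lower and 1 higher, with a median of -0.25. Agpat2, which makes phosphatidic acid, had 158, 223, 217, 150.5 and 185 FPKM in the conjugate libraries, against 394, 309.8, 400.1, 383 and 435 FPKM in the vehicle libraries (log2 fold change -1.05 ± 0.21, adjusted p = 0.0111) and kept its call in every alternative. Mogat2, a monoacylglycerol acyltransferase, Hilpda, a droplet protein that restrains lipolysis, and Plin2, a droplet coat protein, were called lower (-1.25, -1.25 and -0.83), and Gpat4, a glycerol phosphate acyltransferase, higher (0.36), but each of these 4 lost its call in some alternatives and the 4 falls became 1 without conjugate replicate 4 or vehicle replicate 1 or 4, 2 without conjugate replicate 1 or 5 or vehicle replicate 2 or 5, and 1 with the B cell score as a term. Of 22 genes of fatty acid uptake and oxidation, 4 were called lower and 0 higher, with a median of -0.29. Lpl, lipoprotein lipase, which frees fatty acids from circulating lipoproteins, had 1016, 1907, 1656, 1597 and 1190.4 FPKM in the conjugate libraries, against 2847, 3007, 2848, 2548 and 2547 FPKM in the vehicle libraries (log2 fold change -0.94 ± 0.20, adjusted p = 0.0166). Acsl1, which activates fatty acids to acyl-CoA, fell by 0.73 on the log2 scale (adjusted p = 0.0176; 0.0502 without conjugate replicate 5), and the oxidation genes Etfdh and Hadha fell by 0.47 and 0.31. The 4 falls became 1 without conjugate replicate 5, and 2 without any other library but vehicle replicate 5 and with the B cell score as a term.

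No gene of lipolysis and its control was called among 16 (limma, smallest adjusted p = 0.0505, with 8 at an unadjusted p under 0.05), and the list median was 0.10. Adrb3, the beta-3 adrenergic receptor of adipocytes, had 66.9, 16.3, 19.3, 29.7 and 70.6 FPKM in the conjugate libraries, against 10.98, 15.4, 18.2, 4.01 and 10.5 FPKM in the vehicle libraries (log2 fold change 1.58 ± 0.46, adjusted p = 0.0505). Its replicates 1 and 5 were high and the others near the vehicle range. Among the triglyceride lipases, Pnpla2 averaged 589.5 ± 214 FPKM with the conjugate and 345 ± 90.4 FPKM with vehicle (adjusted p = 0.0916) and Lipe 572 ± 113 FPKM with the conjugate and 394 ± 107 FPKM with vehicle (adjusted p = 0.163).

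Glucose genes moved in both directions. Of 22 genes of glucose uptake, glycolysis and glyceroneogenesis, 3 were called higher and 2 lower, with a median of 0.12. Pck1, the enzyme that opens glyceroneogenesis in fat, had 729, 408, 558, 649 and 962 FPKM in the conjugate libraries, against 249, 173, 466, 185 and 256 FPKM in the vehicle libraries (log2 fold change 1.35 ± 0.27, adjusted p = 0.0111). The groups overlapped through vehicle replicate 3, which was far above the other 4 vehicle libraries, and the call was kept in all alternatives. Slc2a4, the insulin-regulated glucose transporter GLUT4, had 62.5, 57.4, 59.6, 63.4 and 80.7 FPKM in the conjugate libraries, against 45.1, 33.1, 50.8, 32.2 and 35.4 FPKM in the vehicle libraries (log2 fold change 0.72 ± 0.15, adjusted p = 0.0151). Pdk2, a kinase that inhibits pyruvate dehydrogenase, rose by 0.72 ± 0.17 with a call in 16 of 26 alternatives, and Pcx, pyruvate carboxylase, fell by 0.69, although Gys2 was the single fall left without conjugate replicate 1, 3, 4 or 5 or vehicle replicate 1, 3 or 5 and with the B cell score as a term. Gys2, the glycogen synthase isoform known from liver, had 4.39, 6.78, 5.28, 3.16 and 4.57 FPKM in the conjugate libraries, against 18.5, 23.2, 14.8, 18.9 and 18.3 FPKM in the vehicle libraries (log2 fold change -1.77 ± 0.21, adjusted p = 0.000495), whereas Gys1, the muscle isoform, was not called (26.4 ± 2.60 FPKM with the conjugate and 22.7 ± 2.80 FPKM with vehicle).

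Of 15 measured thermogenic genes, 3 were called lower and 1 higher, and the 3 falls were called in every fit that left out a library. Elovl3, an elongase induced by cold, had 0.0621, 0.665, 0.131, 0.0205 and 0.0485 FPKM in the conjugate libraries, against 3.61, 1.62, 4.37, 2.78 and 3.24 FPKM in the vehicle libraries (log2 fold change -1.78 ± 0.22, adjusted p = 0.000661), a difference that the added 1 of the log scale damps at these low levels. Gk, glycerol kinase, had 1.75, 2.57, 2.04, 2.23 and 1.86 FPKM in the conjugate libraries, against 5.10, 7.33, 4.53, 6.22 and 5.05 FPKM in the vehicle libraries (log2 fold change -1.097 ± 0.13, adjusted p = 0.000495). Otop1, a proton channel, fell by 0.97 and Ebf2, a factor of beige adipocyte identity, rose by 0.43 ± 0.12, although Ebf2 lost its call in 14 of 26 alternatives. Ucp1, the uncoupling protein of thermogenic fat, was at 0.700 to 2.63 FPKM with the conjugate and 0.376 to 2.04 FPKM with vehicle and was not called (adjusted p = 0.418).

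Among 20 adipokines and secreted regulators, Cfd, Gpx3 and Nnat were called higher and Angptl8 lower, with a median of -0.06. The 1 fall became 0 without conjugate replicate 1, 4 or 5 or vehicle replicate 1 or 5 and with the B cell score as a term, 2 without vehicle replicate 4, 3 under quantile normalization, 4 without conjugate replicate 2 or with 2 groups only and 5 with array weights. The median was 0.024 with the B cell score as a term and -0.197 under quantile normalization. Lep, the gene of leptin, whose level follows fat mass, had 297, 1081, 849, 722 and 519.6 FPKM in the conjugate libraries, against 1678, 1352, 1461, 1576 and 1245 FPKM in the vehicle libraries. The groups did not overlap, but the difference was not called (log2 fold change -1.197 ± 0.37, adjusted p = 0.0614). Mest, an imprinted gene linked to adipocyte enlargement in mice, averaged 236 ± 106 FPKM with the conjugate and 512 ± 75.3 FPKM with vehicle and was likewise not called (log2 fold change -1.26 ± 0.44, adjusted p = 0.0998). Adipoq was not called (log2 fold change 0.01 ± 0.19, adjusted p = 0.984). Of 12 mature adipocyte markers, Cfd and Slc2a4 were called higher and 0 lower, with a median of 0.15. The 2 rises became 1 without conjugate replicate 5. Among 16 adipogenic transcription factors, 2 were called higher and 0 lower, with a median of 0.24, and the 2 became 1 when any library but conjugate replicate 5 was left out. Ebf1, which takes part in adipocyte commitment, had 34.5, 36.6, 34.1, 43.5 and 29.3 FPKM in the conjugate libraries, against 25.6, 29.3, 23.8, 24.8 and 22.3 FPKM in the vehicle libraries (log2 fold change 0.48 ± 0.10, adjusted p = 0.0159).

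Among genes of the extracellular matrix, falls outnumbered rises. Of 33 genes of collagens and matrix, 10 were called lower and 2 higher, with a median of -0.47. Postn, the matricellular protein periostin, had 49.3, 99.0, 78.0, 76.3 and 76.7 FPKM in the conjugate libraries, against 178, 173, 174, 224 and 156 FPKM in the vehicle libraries (log2 fold change -1.26 ± 0.22, adjusted p = 0.00537). Col6a3, the collagen VI chain that gives rise to endotrophin, had 41.997, 69.0, 48.2, 45.002 and 32.2 FPKM in the conjugate libraries, against 116, 96.1, 113, 83.5 and 75.9 FPKM in the vehicle libraries (log2 fold change -1.04 ± 0.19, adjusted p = 0.00653). Both kept their calls in all alternatives. Col15a1, Col5a3 and Col3a1 fell by 1.11, 0.98 and 0.94 on the log2 scale, and they kept their calls in 18 of 26, 23 of 26 and 12 of 26 alternatives. The most abundant fibrillar chains, Col1a1 and Col1a2, were not called (-0.32 and -0.22), and neither was fibronectin, Fn1 (-0.05). The 2 rises were the proteoglycan decorin, Dcn (896 ± 140.4 FPKM with the conjugate and 617 ± 105 FPKM with vehicle), and the thrombospondin Thbs2 (34.2 ± 8.18 FPKM with the conjugate and 21.5 ± 3.505 FPKM with vehicle). Dcn kept its call in 15 of 26 alternatives and Thbs2 in 22 of 26. The 2 rises became 0 under quantile normalization and without vehicle replicate 2, 3 or 5, and 1 without conjugate replicate 3, 4 or 5 or vehicle replicate 1.

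Of 16 basement membrane genes, 3 were called lower and 0 higher. Col4a1, a chain of collagen IV, had 129.7, 266, 209.7, 155 and 130.2 FPKM in the conjugate libraries, against 478, 284, 488, 357 and 342 FPKM in the vehicle libraries (log2 fold change -1.15 ± 0.24, adjusted p = 0.0143). Its partner Col4a2 and the calcium-binding glycoprotein Sparc fell by 1.17 and 1.06, with calls kept in 24 of 26 and 11 of 26 alternatives. The 3 falls became 1 without conjugate replicate 5 or vehicle replicate 1. With the B cell score as a term, the matrix list held 4 falls and 3 rises. The 10 falls of the matrix list became 5 without conjugate replicate 1, 6 without replicate 4 and 4 without replicate 5, and 4, 5 and 6 without vehicle replicates 1, 4 and 5.

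Of 21 cell cycle and DNA replication genes, 3 were called lower and 0 higher, with a median of -0.41. Cdk1, the kinase that drives mitosis, had 4.10, 6.09, 5.92, 4.18 and 3.07 FPKM in the conjugate libraries, against 10.3, 11.4, 12.1, 14.1 and 9.99 FPKM in the vehicle libraries (log2 fold change -1.17 ± 0.18, adjusted p = 0.00232). Birc5, or survivin, a part of the chromosomal passenger complex, had 3.87, 3.91, 3.24, 2.22 and 2.19 FPKM in the conjugate libraries, against 5.67, 6.296, 7.20, 7.28 and 7.70 FPKM in the vehicle libraries (log2 fold change -0.96 ± 0.23, adjusted p = 0.0217). Ccnd1, a cyclin of the first growth phase, fell by 0.39, whereas the replication helicase genes Mcm2 to Mcm7 had log2 fold changes between -0.21 and 0.17 with 0 calls. The number of falls was 9 with the B cell score as a term and 10 after removal of conjugate replicate 1 and 2 knockout libraries, whose B cell scores exceed 5. It was 6 without conjugate replicate 2 and 1 without conjugate replicate 4 or 5 or vehicle replicate 4 or 5.

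**Figure D4:**
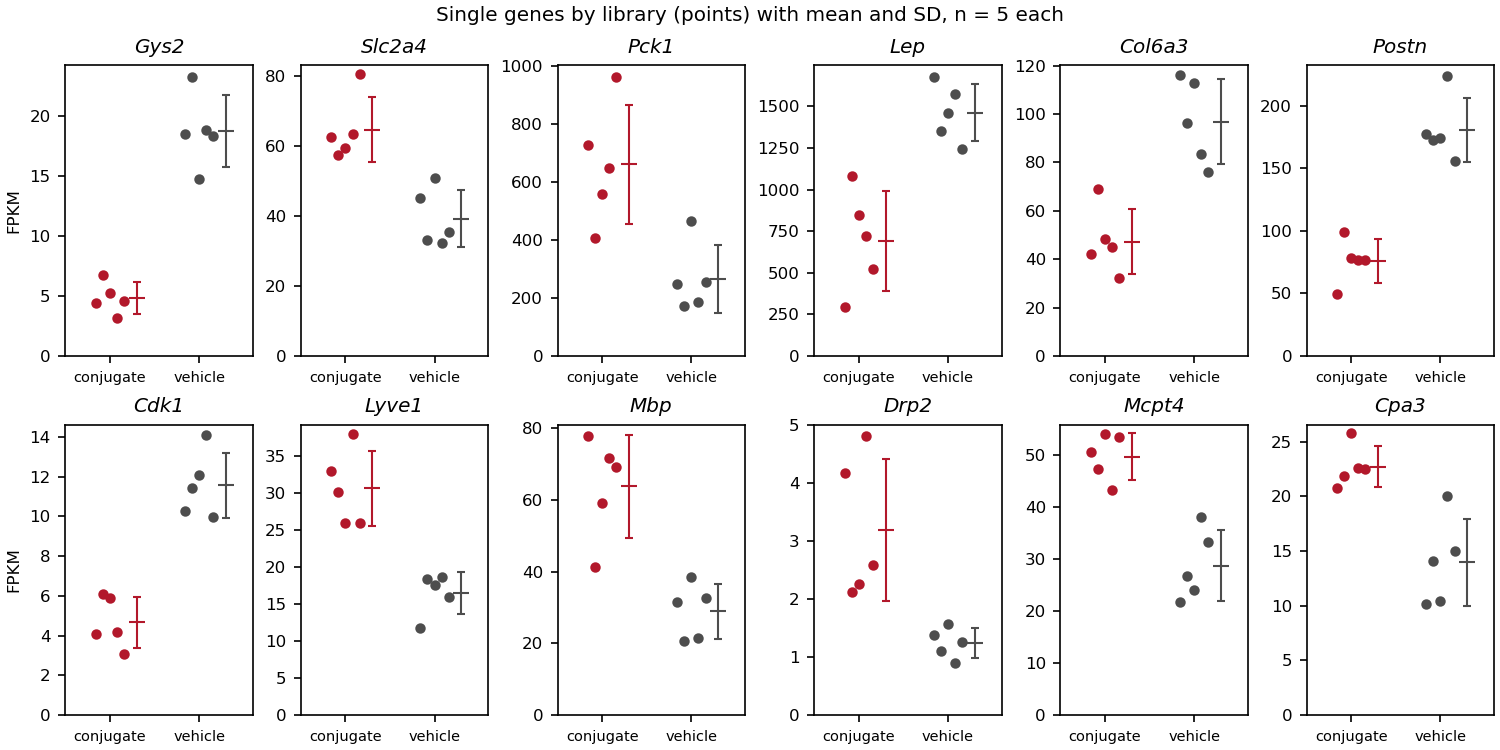
FPKM of 12 genes in each conjugate and vehicle library of Giprfl/fl fat, with mean and SD (n = 5 each). Gys2, Lep, Col6a3, Postn and Cdk1 are lower and Slc2a4, Lyve1, Mbp, Drp2, Mcpt4 and Cpa3 higher in all conjugate libraries than in any vehicle library, and Pck1 overlaps through vehicle replicate 3, although Lep was not called.

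Genes of Schwann cells, the glia of peripheral nerves that form myelin, were higher with the conjugate. Of 13 measured genes, 8 were called higher and 0 lower, and the list median was 0.80 on the log2 scale. Mbp, the myelin basic protein, had 77.8, 41.2, 59.1, 71.7 and 69.0 FPKM in the conjugate libraries, against 31.5, 20.7, 38.5, 21.4 and 32.6 FPKM in the vehicle libraries (log2 fold change 1.12 ± 0.26, adjusted p = 0.0198), and its call was lost without conjugate replicate 1 or 5 or vehicle replicate 2 or 4. Drp2, which anchors myelin to the basal lamina, had 4.18, 2.12, 2.26, 4.82 and 2.59 FPKM in the conjugate libraries, against 1.37, 1.11, 1.58, 0.901 and 1.26 FPKM in the vehicle libraries (log2 fold change 0.86 ± 0.17, adjusted p = 0.0111). Drp2 and Ncmap, a compact myelin protein (0.83 ± 0.18), kept their calls in every alternative that tests them. Prx, periaxin, rose by 0.998 ± 0.23 and kept its call in 20 of 26 alternatives. It was lost without conjugate replicate 4 or 5 or vehicle replicate 2 or 4, under quantile normalization and without the higher series of library numbers (limma adjusted p up to 0.0547).

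Sox10, the transcription factor of this lineage, and Cdh19, a cadherin of Schwann cell precursors, had log2 fold changes of 0.83 and 0.54. The score over the list was 2.67 to 3.29 in the conjugate libraries and 2.22 to 2.56 in the vehicle libraries. Of 8 peripheral neuron genes only Uchl1 and Stmn2 passed the filter, and neither was called (adjusted p = 0.308 and 0.708). The 8 calls became 9 with the B cell score as a term and 4 under quantile normalization, and they became 5 without conjugate replicate 4 or 5 and 4 without vehicle replicate 2 or 4, while the median stayed between 0.61 and 0.997 in all alternatives.

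Mast cell genes gave rises and 0 falls. Of 8 measured genes, 5 were called higher and 0 lower, with a median of 0.61. Mcpt4, a chymase stored in connective tissue mast cells, had 50.6, 47.2, 53.9, 43.1 and 53.4 FPKM in the conjugate libraries, against 21.6, 26.6, 24.1, 38.1 and 33.2 FPKM in the vehicle libraries (log2 fold change 0.79 ± 0.14, adjusted p = 0.00503). Cpa3, the carboxypeptidase of mast cell granules, had 20.8, 21.9, 25.8, 22.6 and 22.5 FPKM in the conjugate libraries, against 10.2, 14.1, 10.5, 20.04 and 14.998 FPKM in the vehicle libraries (log2 fold change 0.70 ± 0.16, adjusted p = 0.0206). The groups did not overlap for either gene, with vehicle replicate 4 the nearest to the conjugate group. Cma1, a second chymase gene, rose by 0.68 ± 0.15, the tryptase Tpsab1 by 0.53 ± 0.13 and Ms4a2, a chain of the high-affinity IgE receptor, by 0.40 ± 0.11, and the call of Ms4a2 held in 3 of 25 alternatives. Kit, the stem cell factor receptor that melanocytes and progenitors share, was not called (-0.18), nor was Hdc, the histamine-forming enzyme (0.02). The 5 calls became 2 under quantile normalization, 3 and 2 without conjugate replicates 3 and 5, and 2, 3 and 3 without vehicle replicates 1, 2 and 3. They became 3 with the B cell score as a term, 3 with the muscle score and 2 with both. A stricter filter left 3 calls, as did removal of replicate 5 of both the conjugate and the knockout group.

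Of 13 macrophage markers, 1 was called higher and 0 lower, with a median of 0.18, and among all genes tested 4.26% were called higher and 2.76% lower, so the count is close to that share. The single rise became 2 without conjugate replicate 3. Lyve1, a hyaluronan receptor of perivascular macrophages and of lymphatic endothelium, had 32.996, 30.2, 26.03, 37.97 and 25.99 FPKM in the conjugate libraries, against 11.7, 18.5, 17.5, 18.7 and 15.98 FPKM in the vehicle libraries (log2 fold change 0.86 ± 0.14, adjusted p = 0.0039). It kept its call in all alternatives, and of 4 lymphatic endothelium genes 0 were called. None of 13 markers of lipid-associated macrophages was called, with a median of -0.37, a smallest adjusted p of 0.135 and 2 at an unadjusted p under 0.05. Of 13 cytokine and chemokine genes Saa3 was the only one called. Genes of B cells (12), T cells (11), lymph node stroma (4) and MHC class II (8) had medians of 1.57, 0.88, 1.93 and 0.60 but 0 calls. With array weights, which weight libraries by their agreement with the fit, 12 B cell, 2 T cell, 4 lymph node stroma and 3 MHC class II genes were called higher. The T cell median was -0.44 with the B cell score as a term and 1.36 without vehicle replicate 2, and without that library the lymph node stroma list had a median of 2.64 and 1 call. Cd79a, a chain of the B cell receptor, had 180.0, 18.1, 51.9, 5.52 and 39.7 FPKM in the conjugate libraries, against 1.95, 47.7, 6.51, 1.89 and 3.93 FPKM in the vehicle libraries, and the groups overlapped through vehicle replicate 2.

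Smaller groups of calls concerned amino acids, redox and the clock. Among all genes tested 4.26% were called higher and 2.76% lower, and a single call in lists of these sizes is close to such shares. Of 16 clock genes, 3 were called higher, with a median of 0.44. Hlf and Tef, transcription factors driven by the clock, rose by 0.62 ± 0.15 and 0.49 ± 0.14, and the period gene Per3 by 0.55 ± 0.15. Dbp, a close relative, averaged 69.1 ± 15.7 FPKM with the conjugate and 40.2 ± 9.41 FPKM with vehicle and was not called (adjusted p = 0.0755), and the clock list had 0 calls under quantile normalization and without conjugate replicate 1 or 4 or vehicle replicate 1, 2 or 4, and 1 without conjugate replicate 3 or 5 or vehicle replicate 3. The labels give no time of day. Of 23 antioxidant genes, Gpx3, Gstm1 and Gsr were called higher and Sod2 lower, and Gsr and Sod2 kept their calls in 6 of 26 and 18 of 26 alternatives. Gstm1, a glutathione transferase, had 178, 212, 248, 278 and 257 FPKM in the conjugate libraries, against 119, 117, 148, 145 and 129.8 FPKM in the vehicle libraries (log2 fold change 0.82 ± 0.17, adjusted p = 0.014). Of 18 genes of branched-chain amino acid catabolism, Ivd, isovaleryl-CoA dehydrogenase, and Aldh6a1, methylmalonate semialdehyde dehydrogenase, were called higher (0.62 ± 0.14 and 0.43 ± 0.12, in 22 of 26 and 8 of 26 alternatives) and 0 lower. Txnip, a thioredoxin-binding protein induced by glucose and glucocorticoids, rose by 0.59 ± 0.14. It was the only call among 12 measured genes of the glucocorticoid and fasting response, with a list median of 0.16. Xbp1, the transcription factor of the unfolded protein response, rose by 0.46 ± 0.13. It was the only call among 18 genes of the unfolded protein and integrated stress response, with a list median of 0.07. Txnip and Xbp1 kept their calls in 17 of 26 and 13 of 26 alternatives. Of 23 nuclear genes of oxidative phosphorylation only Cycs, cytochrome c, was called (-0.38 ± 0.11, in 11 of 26 alternatives), and of 16 interferon-stimulated genes 0 were called.

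The conjugate was also given to Glp1rfl/fl mice, whose libraries stand in a table of their own and were fitted within it. There, 293 of 12686 genes were called higher (2.31%) and 137 lower (1.08%). Vehicle replicate 2 of that line had a B cell score of 6.02, against 0.341 to 0.490 in its other vehicle libraries. Its mitochondrial share was 8.63%, against 12.8 to 14.3% in those libraries. The part of this library in the counts of the Glp1rfl/fl line was not tested. Among 12541 genes tested in both lines, 128 were higher in both, which is 24.2% of the 530 called higher in the Giprfl/fl line and 43.8% of the 292 called higher in the Glp1rfl/fl line. Likewise 88 were lower in both, which is 24.5% of 359 and 66.2% of 133, and 0 were called in opposite directions. Of the 889 genes called in the Giprfl/fl line, 849 (95.5%) had the same sign in the Glp1rfl/fl line, against 67.3% of all genes tested in both.

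Sterol genes gave 11 falls in the Giprfl/fl line and 10 in the Glp1rfl/fl line, with medians of -0.59 and -0.60. Gpx3, Chrdl1, Fasn, Gys2, Elovl3 and Gk were called in both lines, with log2 fold changes in the Glp1rfl/fl line of 1.73, 1.49, -1.08, -1.30, -1.56 and -1.03. Of the other large rises, Inmt, Slc1a3, Net1, Nnat and C7 were called there too. Not called in the Glp1rfl/fl line were Cfd (1.32, limma adjusted p = 0.0653), Cyp2f2 (-0.0044, adjusted p = 0.999), Sult1e1 (1.03, adjusted p = 0.224) and St6galnac5 (1.11, adjusted p = 0.0552). Tph2 was lower there by 1.87 (adjusted p = 0.0204). The Schwann cell list had 8 rises in the Giprfl/fl line and 0 in the Glp1rfl/fl line, with medians of 0.80 and 0.07, and the matrix list had 10 falls and 2, with medians of -0.47 and -0.06.

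Whether the response to the conjugate differed between the lines was asked with an interaction term over 30 libraries and 13749 genes. It called 0 genes (0%) in limma, with a smallest adjusted p of 0.900 and 545 genes at an unadjusted p under 0.05. The smallest unadjusted p belonged to Adamts4, a protease that cleaves proteoglycans, which differed by -0.78 ± 0.17 on the log2 scale. Adamts4 had 0.532, 0.924, 1.36, 0.897 and 0.468 FPKM in the conjugate libraries, against 2.24, 1.78, 2.01, 1.68 and 1.65 FPKM in the vehicle libraries of the Giprfl/fl line (log2 fold change -0.66 ± 0.13, adjusted p = 0.0111), and its log2 fold change was 0.11 in the Glp1rfl/fl line. Postn differed by -1.10 ± 0.32 and Mbp by 1.17 ± 0.50, at an adjusted p of 0.900 each. The next genes by unadjusted p were Ncald (-0.47 ± 0.12), Thbs4 (0.83 ± 0.22), Anln (-0.66 ± 0.18), Sprr1a (-2.16 ± 0.58), P2rx5 (-0.78 ± 0.21), Nes (-1.14 ± 0.31) and the gene models Gm10273, 2310061I04Rik and Gm45713, whose counts may be shared with near-identical copies and are uncertain. No gene is therefore called particular to the Giprfl/fl line, and differences between the list counts of the lines were not tested.

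GiprSyn-/- mice given vehicle were set against the same vehicle libraries, so both contrasts share their control and their values are given side by side only. With the conjugate 579 genes were higher and 376 lower, and in the knockout 899 were higher (6.61%) and 771 lower (5.67%). The B cell score ran from 3.11 to 5.81 in the knockout libraries and from 0.868 to 4.17 in the vehicle libraries. Of the 12 B cell genes 6 were called higher in the knockout, with a median log2 fold change of 2.60. The part of lymph node content in the knockout counts was not tested. The log2 fold change of Cfd was 2.67 with the conjugate and 2.89 in the knockout. That of Gpx3 was 2.21 with the conjugate and 1.56 in the knockout. Tph2 had -3.31 with the conjugate and -3.40 in the knockout, and Fasn had -1.51 with the conjugate and -1.21 in the knockout. Sterol genes gave 0 rises and 11 falls with the conjugate, and 1 rise and 13 falls in the knockout. Matrix genes gave 2 rises and 10 falls with the conjugate, and 0 rises and 19 falls in the knockout. Schwann cell genes gave 8 rises with the conjugate and 9 in the knockout.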

How the data were processed

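Libraries of polyadenylated RNA were prepared with a stranded kit, and the deposited tables hold FPKM made by the authors with RSEM, per the submitters' processing notes. For RSEM the version, and for the alignment the aligner, build and annotation, are not given in the sources consulted, nor is the handling of reads shared between near-identical copies. Analysis started from the 15 inguinal fat libraries of the Giprfl/fl table, grouped by their titles, and from 15 of the Glp1rfl/fl table. Liver libraries were not analysed here.

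Genes with at least 1 FPKM in at least 5 libraries were tested on log2(FPKM + 1) with limma 3.58.1 in R 4.3.3 (empirical Bayes with a mean-variance trend, Benjamini-Hochberg adjustment over all genes tested, adjusted p under 0.05, two-sided). Fold changes are conjugate over vehicle on the log2(FPKM + 1) scale, which understates changes of low genes, and follow ± with the SE, whereas means follow ± with the SD (n = 5 each). All 3 groups of the table shared a single estimate of the spread. The fit was run on simulated data in which each gene varied independently of the others. Variation shared between genes, as from lymph node or muscle content, was not part of that check. Depth was estimated from the smallest steps of FPKM in single-transcript genes 1500 to 6000 bases long, less 200 bases, at a tolerance of 5%. Replicates are biological replicates by their titles, and their number limits precision.

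The members of 41 gene lists were chosen with earlier results of these data known. Named genes are the 15 that rose most and the 15 that fell most among those called with non-overlapping groups, a higher group mean of at least 5 FPKM and a gene name, up to 5 called members of each list (or the 2 with the smallest p where none was called), Gipr, Glp1r, Dpp4, Gpx3, Pck1 and Tph2, and the 10 genes with the smallest p for the difference between the lines. Some genes that the rule takes in are not reported here by name or in figures, but count in the totals. The other genes were picked after their values were seen. Alternatives changed the pseudocount, filter, scaling, variance model, covariates and libraries. Promoters are from RefSeq (GRCm38.p6). Python 3.11.15, numpy 2.4.6, pandas 2.3.3, scipy 1.17.1 and matplotlib 3.10.9 were used.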

Additional observations from a re-analysis of the deposited data

Results flagged for a closer look

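In 28 of 272 groups of 5 libraries the highest or lowest library stood further from the others than Dixon's 95% limit, a limit that chance passes in about 1 of 20 groups. Conjugate replicate 1 accounted for 9 of these and vehicle replicate 2 for 7.

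Lymphoid genes recurred among them. In conjugate replicate 1, H2-Oa had 39.7 FPKM, Cd74 2020 FPKM, Cd79a 180.0 FPKM, Cd4 35.9 FPKM, Cd2 50.1 FPKM, Cxcl13 68.7 FPKM and Ccl21a 564 FPKM, each above the other 4 conjugate libraries. In vehicle replicate 2, H2-Oa had 10.9 FPKM, Cd79a 47.7 FPKM, Cd4 11.4 FPKM, Cd2 21.4 FPKM, Cxcl13 21.7 FPKM and Ccl21a 162 FPKM, each above the other 4 vehicle libraries. The B cell score of vehicle replicate 2 was 4.17, against 0.868 to 1.58 in the other vehicle libraries. Stmn2, a neuronal tubulin-binding protein, was also high in conjugate replicate 1, at 7.04 FPKM.

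Conjugate replicate 5 had the greatest estimated depth, 56.7 M fragments against 29.9 to 37.6 M in the other conjugate libraries, and was high for Timp4 (119 FPKM) and Slc2a4 (80.7 FPKM). Conjugate replicate 4 was high for Gpat4 (34.3 FPKM) and Txnip (1117 FPKM), conjugate replicate 2 for Elovl3 (0.665 FPKM) and Sprr1a (0.680 FPKM), and conjugate replicate 1 was low for Etfdh (39.6 FPKM). Among vehicle libraries, replicate 3 was high for Pck1 (466 FPKM, against 173 to 256 FPKM in the others), replicate 4 for Xbp1 (78.0 FPKM) and replicate 5 for Gm10273 (0.0159 FPKM), while replicate 5 was low for Hadha (61.9 FPKM) and replicate 1 for Dpp4 (5.83 FPKM).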

How the results depend on the processing

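No called gene changed sign in any of the 26 alternatives, and of 101 called named genes 50 kept their call in every alternative that tested them. The 955 calls became 634 under quantile normalization, 3618 with array weights, 569 without the libraries of the higher series of library numbers (conjugate replicate 5 and knockout replicate 5, with no vehicle library in it) and 564 with the skeletal muscle score as a term. The 579 rises became 186, 2590, 309 and 338 in these settings and 293 with median-of-ratios scaling. The 376 falls became 1028 with array weights, 226 with the muscle score, 235 with the B cell and muscle scores and 242 under a stricter filter, which tests fewer genes. The 521 changes of at least 1.5-fold became 823 with array weights. Of the 955 calls, 532 were kept under quantile normalization and 529 with the B cell and muscle scores as terms. Leaving out 1 library gave 420 to 1229 calls, 238 to 718 rises, 182 to 511 falls and 287 to 703 changes of at least 1.5-fold, and 0 to 1 genes for the difference between the lines, with 1 without conjugate replicate 2 and 1 without vehicle replicate 4. Where no construction shows the cause, the cause was not tested.

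The replicate number as a block gave 1335 calls. Deviations of libraries with the same number correlated at -0.446, -0.342, 0.257, 0.323 and 0.246, and only those of replicates 3 and 4 correlated best with their own number, so the numbers were not taken as pairs.

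Signs turned for genes that were not called: Cd4 (-0.013 with the B cell and muscle scores), Cd2 (-0.222 with the B cell score and -0.218 with both), Stmn2 (-0.203 and -0.220 in these fits, -0.039 without libraries with a B cell score above 5, and -0.039 to 0.291 leaving out 1 library, lowest without conjugate replicate 1) and Hbb-bt (-0.024 without the higher series, -0.000 with the muscle score, and -0.025 to 0.281 leaving out 1 library, negative without conjugate replicate 5 or vehicle replicate 2). The difference of Pck1 between the lines turned to -0.059 under quantile normalization and ranged from -0.137 to 0.238 leaving out 1 library, negative without conjugate replicate 1 or 5 or vehicle replicate 2 or 4. Values under about 1 FPKM are damped by the added 1, and depth limits them.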

Other observations

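Genes of other cell types and programs in Giprfl/fl fat are given here as values. Of 15 measured genes of adipocyte progenitors, Bmp7, a bone morphogenetic protein, was called higher (2.36 ± 0.416 FPKM with the conjugate and 1.11 ± 0.276 FPKM with vehicle, log2 fold change 0.67 ± 0.14, adjusted p = 0.0138) and Sema3c, a semaphorin, lower (14.4 ± 4.16 FPKM with the conjugate and 21.4 ± 1.92 FPKM with vehicle, log2 fold change -0.58 ± 0.16, adjusted p = 0.042), with a list median of 0.29 and a call of Sema3c in 8 of 26 alternatives. In this list 12 log2 fold changes were positive and 3 negative, with 8 genes at an unadjusted p under 0.05 in limma. The list score was 4.31 to 4.48 in the conjugate libraries and 4.01 to 4.18 in the vehicle libraries. Of 18 genes of selenoproteins and selenium handling only Gpx3 was called in limma, with 5 at an unadjusted p under 0.05. Of 12 genes of blood endothelium 0 were called, with 4 at an unadjusted p under 0.05 and a median of -0.22, and Kdr, a receptor of vascular endothelial growth factor, had the smallest adjusted p (31.01 ± 3.01 FPKM with the conjugate and 44.2 ± 10.5 FPKM with vehicle, log2 fold change -0.47 ± 0.15, adjusted p = 0.0732). Of 10 mural cell genes 0 were called, with 3 at an unadjusted p under 0.05, and of 8 immediate early genes 0 were called, with 3 at an unadjusted p under 0.05.

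Of 9 skeletal muscle genes and 5 erythrocyte genes 0 were called, with 0 at an unadjusted p under 0.05 and medians of 1.42 and 0.10. Of 4 epithelial genes 0 were called, with 1 at an unadjusted p under 0.05 and a median of -0.85. The summed FPKM of all 10 listed epithelial genes, with those below the filter, ran from 2.10 to 38.7 with the conjugate and from 5.17 to 83.5 with vehicle.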
